A study of Homo sapiens with 12 samples.

Results

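Genes of lipid synthesis and its control were examined for N4-acetylcytidine (ac4C), an acetyl mark on cytidines of RNA that is written by the acetyltransferase NAT10. They were SREBF1, SREBF2, SCAP, INSIG1, ACLY, ACACA, FASN and SCD, which are 8 of the 19974 protein-coding genes considered. A peak was counted for a gene when its midpoint lay within the gene span of GRCh38 on the same strand, and this gave 140 of the 126599 peaks listed in 6 libraries. The libraries came from acetylated RNA immunoprecipitation sequencing (acRIP-seq), in which fragmented RNA is pulled down with an antibody against ac4C. All were from SW620, a human colorectal cancer cell line whose stable derivatives were made with lentivirus and puromycin. Of the libraries, 3 came from cells with a control hairpin RNA (shControl, labelled WT) and 3 from cells with a hairpin against NAT10 (shNAT10), here called control and NAT10 KD. Which hairpin sequence was used for the sequenced cells, and whether the 3 libraries of a group came from separate cultures, is not stated, so p-values measure only the spread between these libraries.

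SREBF1 and SREBF2 encode the sterol regulatory element-binding proteins (SREBPs), transcription factors made as precursors in the membrane of the endoplasmic reticulum. SCAP carries the precursors to the Golgi apparatus, where proteases release the active part, and INSIG1 holds SCAP back when sterols are plentiful. Active SREBPs switch on genes of cholesterol and fatty acid synthesis, among them ACLY, which makes cytosolic acetyl-CoA from citrate, ACACA, which turns acetyl-CoA into malonyl-CoA, FASN, which assembles the fatty acid chain, and SCD, which places a double bond in it. Tumour cells are known for making much of their own fatty acid by this route.

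The first 30 bases of the genes whose listed transcription start lay under a peak in most libraries are shown first. In SREBF1 and SCD that start was the 5′ end of the gene span, while in SCAP and ACLY it lay inside the span. The mark has been reported in runs of CNN triplets, a C followed by any 2 bases, so capitals give the longest such run in each window. The sequences are those of RefSeq on GRCh38.p14, written 5′ to 3′ on the strand of the gene. The window of SREBF1 was chr17:17836957-17836986 on the minus strand, that of SCD was chr10:100347233-100347262 on the plus strand, that of SCAP was chr3:47475912-47475941 on the minus strand, and that of ACLY, at the more upstream of its 2 listed starts, was chr17:41918993-41919022 on the minus strand.
SREBF1: agtttccgaggaacttttCGCCGGCGCCGG
SCD: agtCAACTCCTCgcactttgcccctgcttg
SCAP: gggcaccCGGCGGCCAggagagagagggag
ACLY: gCGAgccgatgggggcggggaaaagtccgg

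The windows of SREBF2, at chr22:41833105-41833134 on the plus strand, and INSIG1, at chr7:155297878-155297907 on the plus strand, are given for contrast, since no library listed a peak over either start.
SREBF2: ctttctgtgCGGCGCCCGggcgcaacgcaa
INSIG1: gcggccgtcccgggccgtgaCTCCTCCTTt

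The number of C in the window did not order the genes by whether a peak lay there. Of the windows shown, the covered ones held 9 C in SREBF1, 12 in SCD, 7 in SCAP and 6 in ACLY. The uncovered ones held 11 in SREBF2 and 13 in INSIG1. Not shown are the 3 windows of ACACA, with 16, 14 and 6 C, of which only that with 14 was covered, in 1 library. The second window of ACLY, also covered, held 6. The median over the 35116 listed windows was 8. The longest CNN run was 4 triplets in SREBF1, a length that 15.6% of all windows reached, and 3 triplets in SCD, SCAP, SREBF2 and INSIG1, which 38.2% of windows reached. In the ACLY window shown it was 1 triplet, which 99.8% of windows held, and in its second window 2. The ACACA windows had runs of 5, 4 and 2 triplets, in the same order, the first a length that 6.32% of windows reached. A run of these letters describes the window and is not a site.

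Peaks covered a listed start in all 6 libraries in SREBF1, SCD and ACLY, and in 5 in SCAP, with control replicate 2 the exception. Just 1 of the 3 listed starts of ACACA lay under a peak in 1 library, control replicate 2. Of all 9897 genes with a peak and a listed start, 21.5% had one covered in all 6 libraries and 48.7% in at least 1. FASN has no listed start in the table used. Seen over the whole span, 25 of the 140 peaks (17.9%) had their midpoint in the first 10% of the gene, against 27.6% of all 124775 peaks in genes. The last 10% held 21 peaks (15.0%, against 14.1%).

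The 6 lists held between 17877 and 28752 peaks, with NAT10 KD replicate 1 the longest by far. They give no read counts, so the depth is unknown and no interval for a count of peaks can be set. Peaks in the NAT10 gene numbered 1, 0 and 2 in control and 2, 0 and 1 in NAT10 KD, which is no measure of the knockdown. Of 12 markers of colon epithelium 9 had a peak, 5 of them in all 6 libraries, and KRT18, KRT20 and CDX1 had none. CEACAM5 had 2, 1 and 3 peaks in control and 0 in every NAT10 KD library. Of all 12282 genes with a peak, 0.334% likewise had one in all 3 control libraries and in no NAT10 KD library. Of 7 markers of other cells, COL1A1 and VWF had peaks in control replicates 2 and 3 and NAT10 KD replicate 1, and the others, among them PTPRC, CD3E, COL1A2 and PECAM1, had none. The lists show where a peak was called and not how much RNA there was, and in RNA from a whole culture fewer cells with a transcript and less of it per cell cannot be told apart.

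Of the 8 genes, 6 carried a peak in every library, and 5966 of the 12282 genes with any peak did so (48.6%). INSIG1 had one in 4 libraries and ACACA in 3. The control libraries listed 18, 27 and 24 peaks over the 8 genes and the NAT10 KD libraries 28, 23 and 20, which gives 23.0 ± 4.58 (SD, n = 3) and 23.7 ± 4.04 (SD, n = 3). Control replicate 1 was the lowest of the 6 and NAT10 KD replicate 1 the highest, and the groups overlapped. Per 10000 listed peaks the values were 9.87, 11.9 and 12.0 in control and 9.74, 12.9 and 10.5 in NAT10 KD. On that scale NAT10 KD replicate 1, the longest list, was the lowest of the 6. The part of list length in its higher number was not tested.

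**Figure D1:**
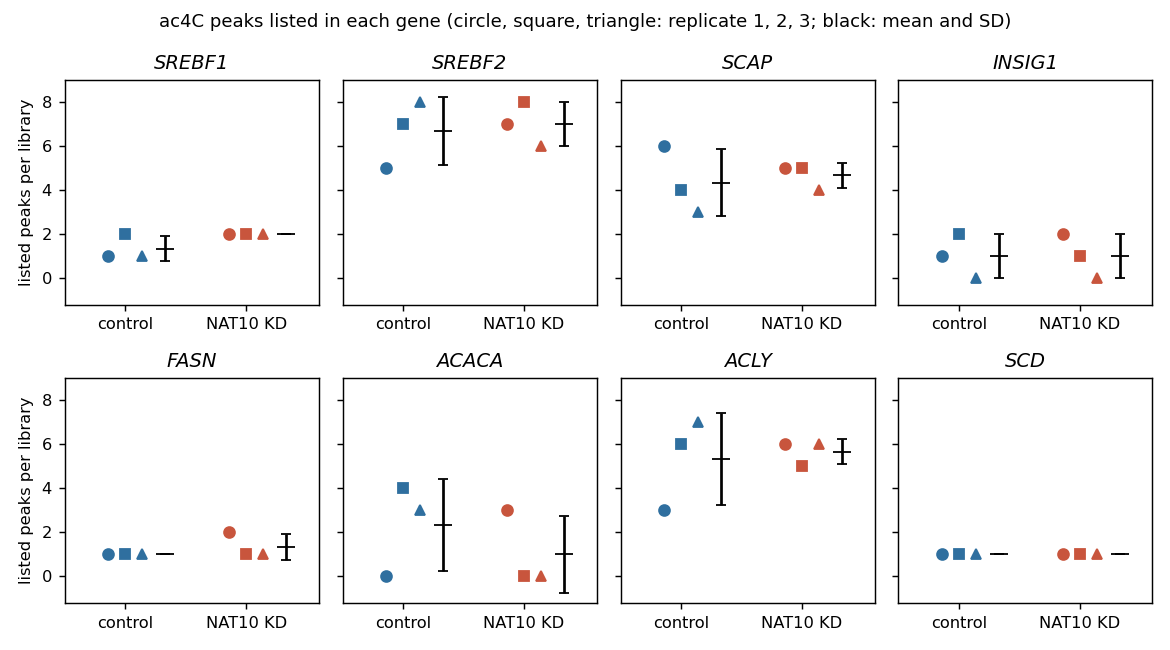
Number of peaks listed in each of the 8 genes (vertical axis, peaks per library) in the 3 control and 3 NAT10 KD libraries. Points are libraries, with circle, square and triangle for replicates 1, 2 and 3, and black bars give the mean and SD. The groups overlap in every gene, SREBF2, ACLY and SCAP have the most peaks, and ACACA is at 0 in 3 libraries.

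No gene of the 8 was marked in every library of one group while missing from the other. Of the 12282 genes with a peak, 0.334% met that rule with the peak in control and 0.366% with it in NAT10 KD. In none of the 8 did the peak numbers of the groups separate, which 2.22% of genes with a peak showed, 0.651% with control higher and 1.57% with NAT10 KD higher. The exact permutation p-values ran from 0.4 to 1.0, two-sided, and 3 libraries against 3 cannot give a p below 0.1.

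The regulators came first. SCAP, the escort of the precursors, had 6, 4 and 3 peaks in control and 5, 5 and 4 in NAT10 KD, or 4.33 ± 1.53 against 4.67 ± 0.577 (SD, n = 3; exact permutation test, two-sided, p = 1.0). Its mean over the 6 libraries, 4.5 peaks, was above that of 92.6% of genes with a peak. INSIG1, the sterol-dependent anchor, had 1, 2 and 0 peaks in control and 2, 1 and 0 in NAT10 KD. Both groups thus held the same 3 values, in different libraries, and replicate 3 of both lacked a peak.

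SREBF2, whose product mainly drives cholesterol genes, had the most peaks of the 8. Its libraries listed 5, 7 and 8 peaks in control and 7, 8 and 6 in NAT10 KD, or 6.67 ± 1.53 against 7.0 ± 1.0 (SD, n = 3; exact permutation test, two-sided, p = 1.0). The mean of 6.83 peaks was above that of 97.2% of genes with a peak. SREBF1, whose product mainly drives fatty acid genes, had 1, 2 and 1 peaks in control and 2, 2 and 2 in NAT10 KD. Control replicate 2 alone of its group equalled the NAT10 KD libraries, and the difference of 0.667 peaks had an exact permutation p of 0.4 (two-sided, n = 3 against 3). Leaving that library out parts the groups of SREBF1 by the values themselves, so it adds no result.

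Among the enzymes, ACLY stood highest with 3, 6 and 7 peaks in control and 6, 5 and 6 in NAT10 KD, or 5.33 ± 2.08 against 5.67 ± 0.577 (SD, n = 3). Control replicate 1 was the low library. SCD had 1 peak in all 6, and FASN had 1 peak in all but NAT10 KD replicate 1, which had 2. ACACA had 0, 4 and 3 peaks in control and 3, 0 and 0 in NAT10 KD (exact permutation test, two-sided, p = 0.7, n = 3 against 3). Its libraries with peaks were control replicates 2 and 3 and NAT10 KD replicate 1, the 3 longest lists.

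In order of the mean number of peaks, SREBF2 (6.83), ACLY (5.5) and SCAP (4.5) were followed by SREBF1 and ACACA (both 1.67), FASN (1.17), and INSIG1 and SCD (both 1.0). The library ranges of SREBF2 and ACLY overlapped, as did those of ACLY and SCAP. SCAP lay above SREBF1, FASN, INSIG1 and SCD in every library, but ACACA equalled it in control replicates 2 and 3. SREBF1, ACACA, FASN, INSIG1 and SCD overlapped and could not be ordered. Span length differs widely among these genes. Per kilobase of span, introns included, 7 of them fell between 0.0568 peaks in SCD and 0.0921 in SREBF2. ACACA, with the longest span at 321845 bases, had 0.00518, a density that placed it at the 10.8 percentile of genes with a peak.

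The gene whose 6 peak numbers were closest to those of SREBF2 was FOXJ2 (Euclidean distance 1.41 peaks over the 6 libraries). Another 4 tied at 1.73, of which JUP and SHROOM2 were nearest by the mean score rank of their peaks. FOXJ2 had 5, 7 and 7 peaks in control and 7, 8 and 7 in NAT10 KD. The likeness is a description.

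Overlapping peaks of the 6 libraries were merged within a strand to ask whether the same places were marked. The 8 genes held 42 regions, 11 of which were listed in all 6 libraries (26.2%, against 22.0% of all 41755 regions), 17 in 2 to 5, and 14 in 1 library (33.3%, against 38.7%). Of the single-library regions, NAT10 KD replicate 1 held 5, control replicate 2 held 4, control replicates 1 and 3 held 2 each, NAT10 KD replicate 3 held 1 and NAT10 KD replicate 2 none. No region of the 42 was listed throughout one group and absent from the other, a pattern that 0.34% of all regions showed for control and 0.819% for NAT10 KD. In all, 27 regions were listed in both groups, 9 in control only and 6 in NAT10 KD only. Of those in 1 group, 8 of control and all 6 of NAT10 KD were in a single library. The share over all regions is not given for this count, which therefore mostly describes single libraries and not groups.

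Where a region recurred, its borders usually did too. Of the 28 regions listed in at least 2 libraries, 24 (85.7%) had the same first and last base in all of them, and so did 60.6% of the 25614 such regions in all. The 4 exceptions were a region at the start of SCAP, another within SCAP, one in INSIG1 and one in ACACA. The peaks of the 8 genes had a median length of 182 bases, against 210 over all peaks, and ran from 30 bases in ACLY to 1869 in SREBF2.

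**Figure D2:**
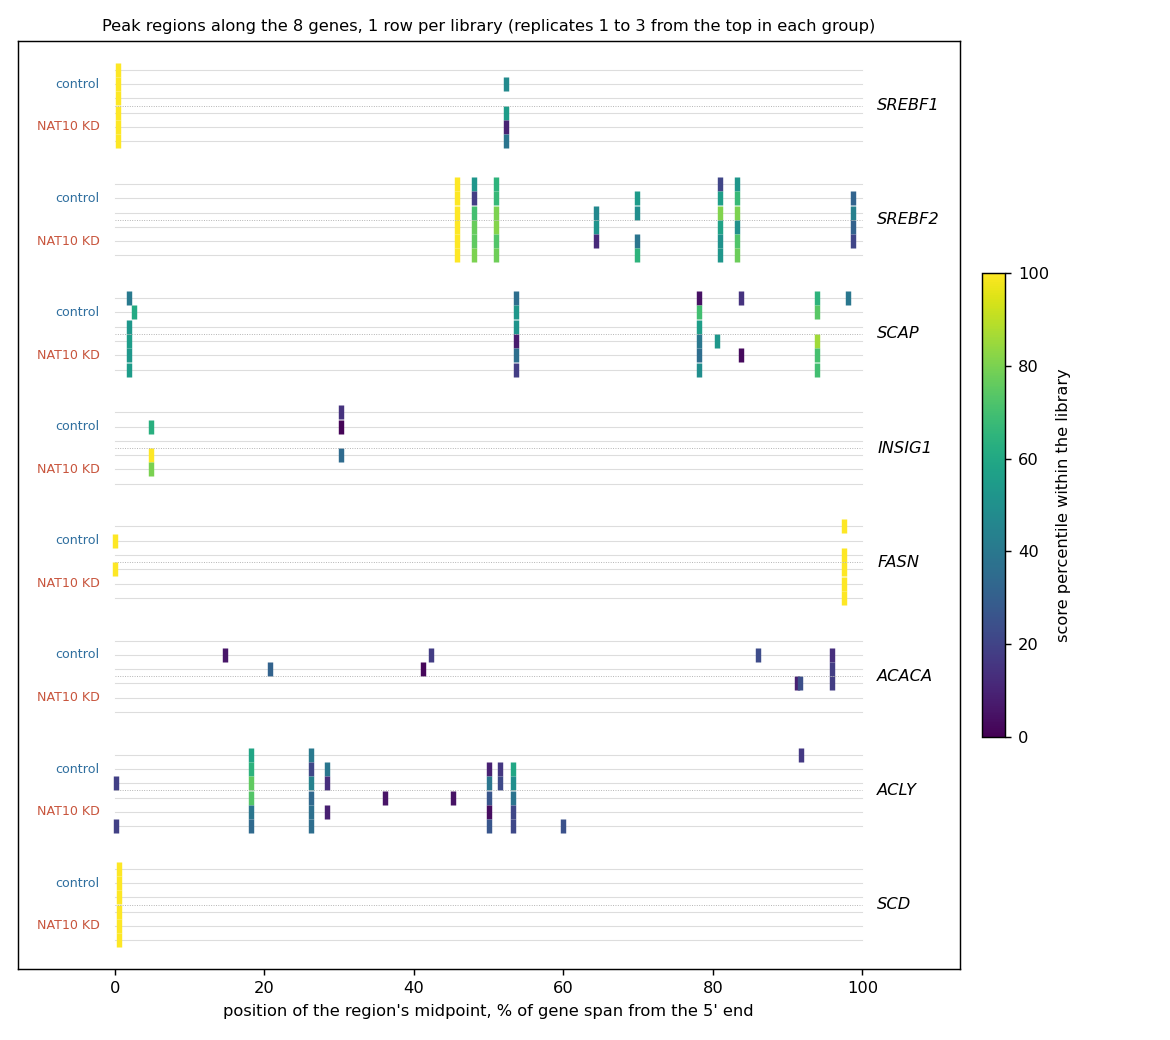
Place of each peak region along the 8 genes, as the region's midpoint in % of the gene span from the 5′ end (horizontal axis). Each line is a library, controls above NAT10 KD with replicates 1 to 3 from the top, and colour gives the percentile of the region's score within its library (100 is the top). SREBF2 shows 5 regions in all 6 libraries and none before 45.8% of its span, SREBF1 and SCD have one at their 5′ end throughout, and the regions of ACACA are scattered and low.

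To compare how strongly a region was called, the deposited score of each peak was turned into its percentile within its own library. Scores of 3100 or more, where most of the highest values pile up, were tied at percentile 100 and are called the cap here. In the 8 genes 26 of 140 peaks (18.6%) were at the cap, against 11.8% of all peaks. They belonged to SREBF1, SREBF2, INSIG1, FASN and SCD. ACLY, SCAP and ACACA had none.

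SREBF1 had 2 regions. The first, chr17:17836727-17837002 (276 bases), covered the transcription start shown above and was at the cap in all 6 libraries. The second, chr17:17823518-17823618, lay 52.3% into the span and was listed in control replicate 2 at percentile 47.3 and in the NAT10 KD libraries at 55.0, 9.44 and 38.4. It was therefore in 1 control and 3 NAT10 KD libraries, with ranks from the lower to the middle part of the lists.

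SREBF2 had 8 regions, all of them in at least 3 libraries and none with a midpoint before 45.8% of the span. The first, chr22:41866831-41867280 (450 bases), began 33726 bases from the 5′ end and was at the cap in all 6 libraries. The last, chr22:41905440-41907308, was the longest of the 42 at 1869 bases, reached the 3′ end of the gene, and was listed in 2 control and 2 NAT10 KD libraries at percentiles from 20.6 to 43.3. A further 4 regions of SREBF2 were in all 6 libraries and below the cap.

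The region chr22:41868611-41868792 (region 2 of SREBF2) was at percentiles 52.7, 18.0 and 70.3 in control and 76.6, 75.4 and 80.3 in NAT10 KD. Every NAT10 KD library ranked it above every control library, and the control values were widely spread. The means were 47.0 ± 26.6 and 77.4 ± 2.52 (SD, n = 3), a difference of 30.4 percentile points (exact permutation test, two-sided, p = 0.1, the smallest possible). In the limma fit over 8262 regions the standard error was 12.2 points and the adjusted p 0.675. Of those regions, 7.76% separated in this direction. Without control replicate 2 the difference was 15.9 points, and with 17877 peaks kept in each library the region was no longer listed in all 6.

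The other regions of SREBF2 in all libraries overlapped between groups. Region 3, chr22:41870889-41871035, was at 64.6, 66.9 and 80.3 in control and 81.4, 73.0 and 78.0 in NAT10 KD (difference 6.87 points, exact permutation p = 0.3, two-sided). Region 6, chr22:41893117-41893285, differed by 1.07 points and region 7, chr22:41894820-41894937, by -0.114. In region 6 the control libraries ran from 21.0 to 80.9 while the NAT10 KD libraries lay between 50.8 and 57.6.

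Within the introns of the factor genes lie the genes of a known pair of microRNAs, MIR33A in SREBF2 and MIR33B in SREBF1, which act on cholesterol export and fatty acid breakdown. They are shown because their 5p forms share a seed (bases 2 to 8, in capitals) although their hosts lie on different chromosomes. The first is chr22:41900949-41900969 on the plus strand and the second chr17:17813897-17813916 on the minus strand of GRCh38.p14.
hsa-miR-33a-5p: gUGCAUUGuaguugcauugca
hsa-miR-33b-5p: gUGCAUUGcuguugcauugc

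No library listed a peak over either hairpin, in lists that were restricted to mRNA, so the peaks counted for SREBF1 and SREBF2 lay outside them.

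SCAP had 8 regions, 3 of them in 1 library. The one at its start, chr3:47475799-47476113, was listed in 2 control libraries at 41.0 and 53.0 and in the NAT10 KD libraries at 55.2, 53.3 and 54.8. In its place control replicate 2 listed chr3:47475428-47475597, at percentile 60.7, a short way downstream. Near the 3′ end, chr3:47417304-47417826 was in all libraries but control replicate 3, between 64.5 and 85.9, the latter the highest rank in the gene.

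Region 3 of SCAP, chr3:47442872-47443302, was at 36.1, 53.0 and 51.7 in control and 7.56, 36.0 and 18.1 in NAT10 KD. All control libraries ranked it above all NAT10 KD libraries, by the narrow step from 36.1 to 36.0. The means were 46.9 ± 9.38 and 20.6 ± 14.4 (SD, n = 3), a difference of -26.4 points (exact permutation test, two-sided, p = 0.1, the smallest possible, and an adjusted p of 0.714 in limma). Of all regions compared, 3.61% separated this way. At 17877 peaks a library it too was no longer listed in all 6. Region 4, chr3:47427447-47427667, was at 4.58, 69.8 and 55.6 against 40.1, 35.7 and 49.1, so that control replicate 1 was the lowest and control replicate 2 the highest.

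INSIG1 had 2 regions, each in 3 libraries. The one at chr7:155298259-155298697 began 381 bases from the 5′ end. It was listed at percentile 63.0 in control replicate 2, at the cap in NAT10 KD replicate 1 and at 79.9 in NAT10 KD replicate 2. The other, chr7:155301566-155301680, was at 14.1 and 0.84 in control replicates 1 and 2 and at 34.7 in NAT10 KD replicate 1, with a different end in each. A gene with a peak at the cap in 1 library thus had none in 2 others, both called replicate 3.

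ACLY had 11 regions, the most of the 8 genes, with 2 in all 6 libraries and 4 in 1. At the 5′ end of the span itself, region 1, chr17:41930358-41930542, was listed in 2 libraries, at 19.0 in control replicate 3 and 19.2 in NAT10 KD replicate 3. Region 2, chr17:41918880-41919022, began 11523 bases inside the span, with its 5′ border exactly at the listed start shown above, and was at 58.9, 64.2 and 75.4 in control and 73.2, 39.2 and 34.2 in NAT10 KD. NAT10 KD replicates 2 and 3 were lower than all controls and NAT10 KD replicate 1 was not (difference -17.3 points, exact permutation p = 0.3, two-sided, n = 3 against 3). Without NAT10 KD replicate 1 the difference was -29.4 points, and without NAT10 KD replicate 3 it was -9.97. Region 3, chr17:41913715-41913900, had equal means of 35.3 in both groups.

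Further along ACLY, chr17:41896620-41896649, of 30 bases, was listed in all libraries but control replicate 1. Its percentiles were 59.6 and 49.4 in 2 control libraries and 38.4, 21.3 and 21.8 in NAT10 KD. Both control values lay above the NAT10 KD values, but control replicate 1 had no peak there. The groups therefore did not separate, no test was run, and the share of all regions with such values is not given. The region chr17:41897749-41897839 was in 2 control libraries and no NAT10 KD library, at 16.3 and 21.9, and the rest of the gene's regions were no higher than 39.4.

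FASN had a region at each end. The one at its 5′ end, chr17:82098121-82098332, was in control replicate 2 and NAT10 KD replicate 1, and the one at its 3′ end, chr17:82078333-82079280 (948 bases), in all but control replicate 2. Every one of these 7 peaks was at the cap. Control replicate 2 therefore had the 5′ region without the 3′ region, and NAT10 KD replicate 1 both.

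SCD had a single region, chr10:100347124-100347531 (408 bases), with the same borders and a score at the cap in all 6 libraries. It covered the transcription start shown above. Like the 5′ region of SREBF1 it can show neither a rise nor a fall in rank, because every value was tied.

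ACACA was marked unlike the rest. Its 10 peaks made 8 regions, 7 of them in 1 library, and all had percentiles between 1.84 and 31.4. The one region that recurred, chr17:37097830-37097984, was in control replicates 2 and 3 and NAT10 KD replicate 1 at 13.3, 17.9 and 17.9, and lay 96.0% along the span. In control replicate 2, chr17:37358999-37359096 had its 5′ border at one of the listed starts and was at 6.17. One more peak of that library, chr17:37386009-37386125, lay within the span on the opposite strand and was not counted. The presence of ACACA in a list thus rested on peaks at or below percentile 31.4 of that list.

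**Figure D3:**
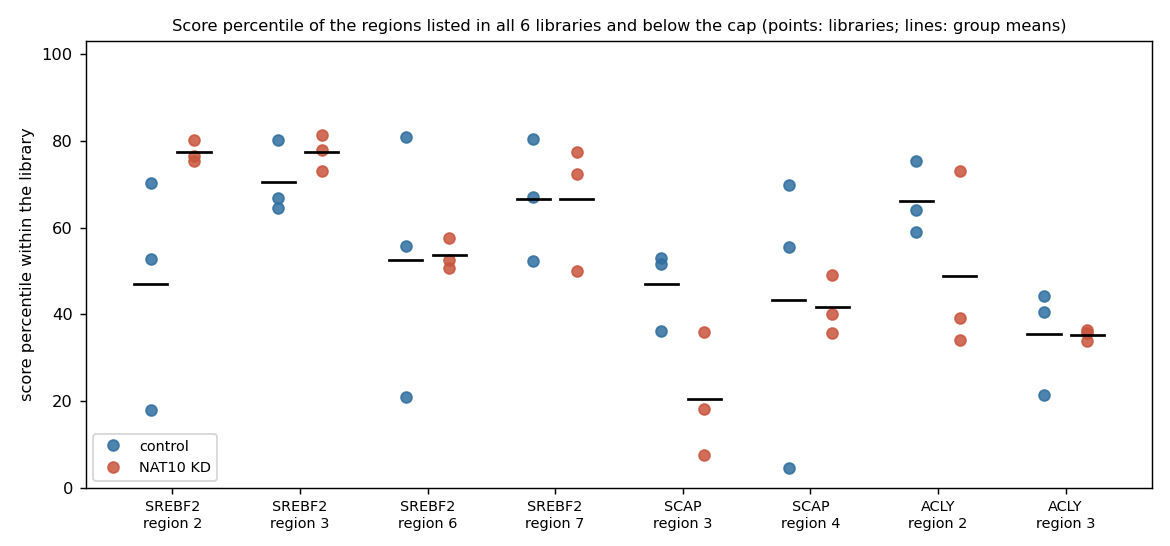
Score percentile within the library (vertical axis, 0 to 100) of the 8 regions of SREBF2, SCAP and ACLY that were listed in all 6 libraries and were not at the cap in all of them. Points are libraries (3 control, 3 NAT10 KD) and lines are group means. Region 2 of SREBF2 is higher in all NAT10 KD libraries and region 3 of SCAP lower, and the groups overlap in the other 6.

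Ranks could be compared for 8 regions of SREBF2, SCAP and ACLY. The 3 others in all 6 libraries, of SREBF1, SREBF2 and SCD, were at the cap throughout, as were 933 (10.1%) of the 9195 such regions overall. Of the 8, 3 had the higher mean in NAT10 KD and 5 in control, with a median difference of -0.0631 points, against 3.06 over the 8262 regions compared, of which 61.5% were higher in NAT10 KD. In limma no region, in these genes or elsewhere, passed an adjusted p of 0.05 (0 of 8262, lowest 0.122). Unadjusted, 588 (7.12%) had a p under 0.05, of which 1 was in the 8 genes, region 2 of SREBF2. Without control replicate 1 the median difference in these genes was -11.0 points, and 4 of the 10 regions then compared separated. Again 4 separated, of 9 compared, without control replicate 2. With a library left out ranks separate more easily, and the share over all regions is not given for these settings.

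The wider pathway was read from 85 other genes of SREBP processing, cholesterol and fatty acid synthesis, glycerolipid synthesis and their regulators. Of these 75 had a peak in some library, 45 in all 6, and 10 in none. None was marked throughout one group and unmarked in the other. In 3 the peak numbers separated with NAT10 KD higher (4.0% of the 75, against the 1.57% given above), and in 0 with control higher. The median difference was 0.0 peaks in the list and 0.0 over all genes with a peak.

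The 3 were MVK and DHCR7, enzymes of an early and the last step of cholesterol synthesis, and NR1H3, the oxysterol receptor LXR alpha that raises SREBF1 transcription. MVK had 1, 3 and 3 peaks in control and 5, 4 and 4 in NAT10 KD. DHCR7 had 1 in each control library and 3, 2 and 4 in NAT10 KD, and NR1H3 1 in each control and 2 in each NAT10 KD library. Each had an exact permutation p of 0.1, two-sided, the smallest possible.

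In DHCR7 the region chr11:71447610-71448078 was in all 6 libraries, and the added peaks of NAT10 KD were spread over 5 further regions, 4 of them in 1 library. In NR1H3, likewise, chr11:47257979-47259259 was in all 6 and the added peak was at 1 of 2 other places. When each library was cut to its 17877 highest-scored peaks, none of the 3 genes still separated, and 1 gene of the list did with control higher. With the upper 50% of scores in each library none of the 3 separated either, and 2 others did with control higher and 1 with NAT10 KD higher. With peaks of either strand counted, DHCR7 alone did. Over the whole list, 6 genes separated with NAT10 KD higher and 1 with control higher when control replicate 3 was left out. Without NAT10 KD replicate 3 there were 3 in each direction. The shares of all genes given above hold for the full lists only, so the counts under these other settings have no share beside them.

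**Figure D4:**
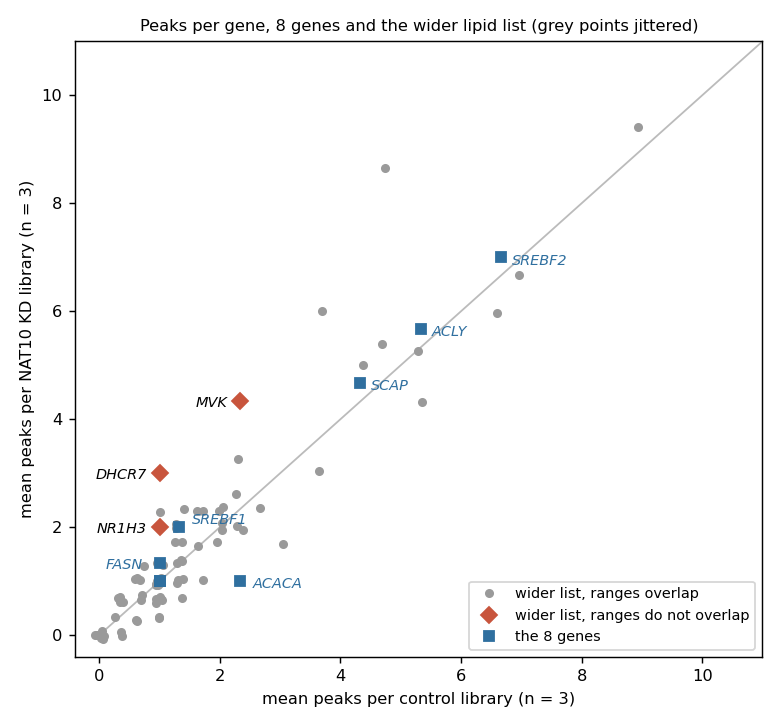
Mean number of peaks per control library (horizontal axis) against the mean per NAT10 KD library (vertical axis), n = 3 each, for the 8 genes (blue squares) and the 85 genes of the wider list (grey points, moved slightly to part equal values, and red diamonds). The line marks equal means. MVK, DHCR7 and NR1H3, the diamonds, lie above it without overlap between groups, while the 8 genes lie near it, apart from ACACA below.

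No gene of SREBP processing separated between the groups. INSIG2, the close relative of INSIG1, had no peak in any library. Of the proteases that cut the precursors, MBTPS1 had 1, 0 and 0 peaks in both groups and MBTPS2 2, 2 and 2 in control and 3, 1 and 1 in NAT10 KD. Of the 11 genes of SREBP processing other than SCAP and INSIG1, 10 had a peak, 5 of them in all 6 libraries.

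Among the genes of cholesterol synthesis, HMGCS1, which makes HMG-CoA, had 1 peak in each library. The absence of INSIG2 from the lists is a statement on these lists, since neither depth nor expression was known.

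The genes with the most peaks in the wider list were LPIN3, ACACB and LSS. LPIN3, a phosphatidate phosphatase, had 9 peaks in all but NAT10 KD replicate 1, which had 10. ACACB, the mitochondrial counterpart of ACACA, had 3, 8 and 10 in control and 13, 3 and 4 in NAT10 KD. LSS, which closes the sterol ring, had 5, 4 and 5 against 13, 5 and 8 (exact permutation p = 0.3, two-sided, n = 3 against 3). In ACACB the high libraries were the same 3 in which ACACA had peaks, those with the longest lists, and the part of list length in this was not tested.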

How the data were processed

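The authors fragmented total RNA from SW620 cells, immunoprecipitated it with an anti-ac4C antibody, called peaks in each of the 6 libraries without pooling and deposited mRNA lists in which every peak has a score. The aligner, the caller's settings and the scale of the score are not given in the sources used here. The submitters' processing notes name GRCh38. The deposited score starts at 50, so it was used only as a rank within a library. Scores of 3100 or more were tied, a rule chosen after the values were seen. Inputs were not analysed here.

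The 8 genes and the wider list were chosen with earlier results of these data known. Gene spans were those of RefSeq on GRCh38.p14. Strand came from the table of transcription starts for 15813 genes and from the majority of a gene's peaks for 2384, FASN included (the same strand in 96.7% of 10029 genes with both). Peaks overlapping by 1 base or more were merged within a strand. Peak numbers and percentiles were compared by two-sided exact permutation tests, and percentiles also by limma 3.58.1 (R 4.3.3), with Benjamini-Hochberg adjustment over all regions listed in all 6 libraries and not at the cap throughout, a filter on high values. Code was tested on simulated data. Python 3.11.15, numpy 2.4.6, pandas 2.3.3 and scipy 1.17.1 were used.

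Genes named were the 8, genes of the wider list whose groups separated, its 3 with the most peaks, chosen partners and targets (HMGCS1, MBTPS1, MBTPS2 and INSIG2 among them), and 3 like SREBF2 (by distance, ties by the distance of the mean score ranks). Markers were named from their list. Some items that these rules select are not reported here. Exons, coding sequence and the base content of peaks were not analysed here. Alternatives were score filters, other overlap and strand rules, other forms of the rank, a replicate block and each library left out.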

Additional observations from a re-analysis of the deposited data

How the results depend on the processing

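Precision is limited by 3 libraries a group and by lists without depth. In limma no region of the 8 genes had an adjusted p under 0.05 under any alternative run, with 1 to 11 of their regions compared, although 4 of 8262 regions elsewhere did with the replicate block and 2 of 4017 with the upper 50% of scores, a fit added after seeing the data with 1 region of these genes. No pairing of the libraries by number was seen (correlations of same-numbered deviations 0.0328, -0.0482 and 0.0775). Differently numbered ones ran from -0.0912 to 0.0639, and such values cannot show that the libraries were unpaired. With the replicate block the difference in total peaks was 0.667 and the median percentile difference -0.0631. For the 8 genes and their regions, no exact p from switching signs of paired differences fell below 0.25, the smallest that 3 pairs allow. Keeping the upper 50% of scores turned the difference in peak number, NAT10 KD minus control, to -0.333 in SCAP, -1.0 in ACLY, -0.333 in DHCR7 and 0.667 in ACACB. Keeping 17877 peaks a library turned it to -0.333 in ACLY, and the percentile difference of region 6 of SREBF2 to -3.35. Regions whose ranks separated numbered 2 in the setting reported and 0 under both filters, which remove peaks. Counting a difference of at least 2 libraries gave 2 regions in place of 0 (region 2 of SREBF1 and region 8 of ACLY), and at equal peak numbers 1 gene of the wider list separated, with control higher, in place of 3 with NAT10 KD higher. With the upper 50% of scores 3 others did, 2 of them with control higher. Shares over all genes or regions are not given here for these settings.

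With each library left out in turn, the difference in peak number ran from -0.5 to 1.0 in SREBF2, -0.333 to 1.17 in SCAP, -0.833 to 1.17 in ACLY and -3.5 to 1.5 in ACACB. The percentile difference ran from -14.7 to 15.2 in region 6 of SREBF2 and -21.1 to 11.5 in region 4 of SCAP, and the median over the compared regions from -11.0 to 6.14. Genes of the 8 that separated numbered 0 to 1 (SREBF1 without control replicate 2, its only control library equal to NAT10 KD). Regions whose ranks separated numbered 2 to 4. Regions in every library of only one group numbered 0 to 1 (without control replicate 1, and without control replicate 2). With a library left out, groups separate more easily in any gene or region, and shares over all of them are not given here. The cause of these changes was not tested.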
